A study of Mus musculus with 16 samples.

Results

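Isoforms with unannotated splice sites, called NNC (not in the catalog) by TALON, were examined in long-read (PacBio Iso-seq) data of mouse cortex and striatum. They were selected on their read counts: the class was NNC, the gene was annotated, and 2 or more of the 16 samples held 5 or more reads each. This gave 875 isoforms in 707 genes, out of 140204 NNC isoforms of annotated genes and 815498 isoforms of all classes listed. The numbers of reads and samples below therefore describe the choice and were not tested. The animals were male, 3 months old, and either R6/2 or non-transgenic (NT), with 4 samples per genotype in each region. R6/2 mice carry a transgene with exon 1 of the human Huntington's disease gene holding an expanded CAG repeat, and NT animals lack it. The labels do not say whether cortical and striatal samples of the same number come from the same mouse, and p values measure only the spread between these samples. Samples are pieces of tissue, so fewer cells of a type and less RNA per cell cannot be told apart.

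In splicing, introns are removed at a donor site at the end of 1 exon and an acceptor site at the start of the next, and introns nearly always end in AG. TALON calls an isoform Known when all its junctions match an annotated transcript, NIC when annotated sites are joined in an unannotated way, and NNC when at least 1 site is absent from the annotation. An incomplete splice match (ISM) holds only part of a known chain of junctions and was left out here. Complete reads are the Known, NIC and NNC reads of a gene, and the share of an isoform is its percent of them.

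Cortical samples had 252885 to 808814 reads. In the striatum the number was between 317050 and 811470 for 4 samples with 1 set of counts and between 917832 and 1496196 for the 4 samples with 2 sets (NT 1, NT 2, R6/2 2 and R6/2 3). The striatal samples with 2 sets also had longer complete reads, with means of 2173 to 2253 nt against 1711 to 1958 nt in those with 1 set. In cortical samples, all with 1 set, the means were 1925 to 2174 nt. The part of read length in the region differences was not tested. Summed levels of 10 marker genes of striatal projection neurons were 8542 to 13432 counts scaled to library size (CPM) in NT striatum and 419 to 496 CPM in NT cortex, which separates the labelled regions. Summed levels of 4 choroid plexus markers varied widely among samples, with 6.56 to 976 CPM in NT cortex, 21.1 to 1598 CPM in R6/2 cortex, 50.8 to 8817 CPM in NT striatum and 92.4 to 315 CPM in R6/2 striatum, and their part in the results was not tested.

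Many of these isoforms differed in total length from an annotated one by only a few bases. Of 601 with as many exons as some Known isoform of their gene, 156 (26.0%) lay within 12 nt of the nearest such isoform in length, 122 of them shorter and 34 longer. For the 987 NIC isoforms of the same minimum and with such a partner the count was 147 (14.9%), 85 shorter and 58 longer. The most frequent differences were 3 nt shorter (36 isoforms, 5.99%; 2.74% of NIC isoforms) and 4 nt shorter (21 isoforms, 3.49%; 0.811% of NIC isoforms). A length includes both ends of the transcript, so such a difference need not lie at a splice site. Larger differences of opposite sign can also cancel in it. The tables give exon number and length but no positions of unannotated sites, so the sites themselves are not shown.

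**Figure D1:**
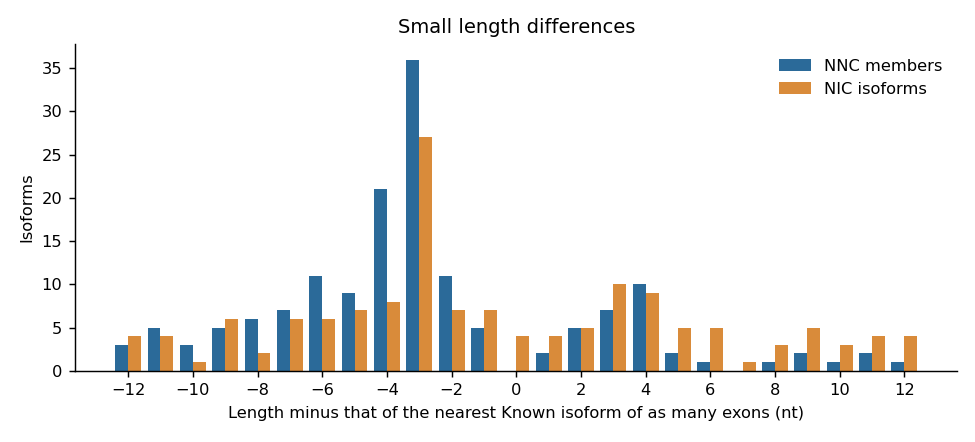
Number of isoforms by length minus that of the nearest Known isoform with as many exons (x axis, nt, from 12 nt shorter to 12 nt longer), for the 875 NNC isoforms and the 1812 NIC isoforms of the same minimum. The highest bar of the NNC isoforms is at 3 nt shorter, with 36 isoforms, followed by 4 nt shorter with 21.

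To show what lies at annotated acceptor sites of such pairs, the spliced sequence of the nearest Known isoform was read from GENCODE M21 (mm10) around each exon start and searched on the transcript strand for AG as the last of the 2, 3 or 4 bases that open an exon, that is for AG, NAG or NNAG. Of 23 isoforms that were 3 nt shorter and could be read, 16 had an exon opening with NAG, against 26.7% of 27856 Known isoforms of at least 2 exons. The same held for 10 of 14 isoforms that were 4 nt shorter (28.3% of Known isoforms) and 7 of 8 that were 2 nt shorter (26.4%). Among NIC isoforms the motif was found in 18 of 18 that were 3 nt shorter, 2 of 7 that were 4 nt shorter and 3 of 6 that were 2 nt shorter. These 3 motifs are read at different depths of the same exon start and do not overlap in 1 count. The following windows, 1 from each of 7 of these isoforms, show the motif at each of the 3 lengths and were chosen after their values were seen. Each runs from the last 12 bases of the preceding exon into the first 18 of the exon named, 5′ to 3′ on the gene's strand, with the bases up to and including AG in capitals.
Mettl9 exon 5 of 5, chr7:121076130-121076835, + strand, 3 nt shorter: atgtagaaaacgTAGgtggcaagtgggaga
Zcchc18 exon 2 of 4, chrX:136993707-136993761, + strand, 3 nt shorter: aaggcctacgagCAGctcatcaaagccgat
Cuedc2 exon 2 of 9, chr19:46332618-46332701, - strand, 3 nt shorter: ctgacggagcagAAGacccagcatggagtt
Aes exon 7 of 7, chr10:81565472-81566362, + strand, 3 nt shorter: tccatcatccgaCAGcagctccaggctcac
Rpl13 exon 2 of 6, chr8:123102653-123102762, + strand, 4 nt shorter: cctgtataggagGCAGccatggcgcccagc
Glrx exon 3 of 3, chr13:75849244-75850151, + strand, 4 nt shorter: aaggggtggcagGCAGagtccatgctgaca
Itm2c exon 5 of 6, chr1:85907008-85907158, + strand, 2 nt shorter: atgaacgtgaagAGagggacctacctccca
A match is a description of these letters and does not show where the unannotated site lies.

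The shares of these isoforms were uneven. In Mettl9, a methyltransferase gene, the isoform held 394 of 2071 complete reads (19.0%), and in Cuedc2, whose product binds ubiquitin, 329 of 2377 (13.8%). In Glrx, which encodes the thiol oxidoreductase glutaredoxin, the isoform held 39 of 404 complete reads (9.65%). In Rpl13, a protein of the large ribosomal subunit, it held 111 of 12962 (0.856%), and in Itm2c, an integral membrane protein, 217 of 20865 (1.04%). A pair of unannotated isoforms in Slc22a17, a receptor for lipocalin 2, also differed from each other in length by few bases. They were 2823 and 2820 nt long, both with 10 exons, and held 70.2% and 25.9% of the gene's complete reads.

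Across all 875 isoforms, the share ranged widely. The median was 5.92%, with quartiles of 1.09% and 23.4%. The share was above 50% in 106 isoforms, between 20% and 50% in 136, between 5% and 20% in 227, between 1% and 5% in 197 and at most 1% in 209. In 166 cases (19.0%) the isoform was the most read of its gene. The 1812 NIC isoforms had a median share of 9.85% and were the most read of their gene in 19.0%, with 142 above 50%.

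**Figure D2:**
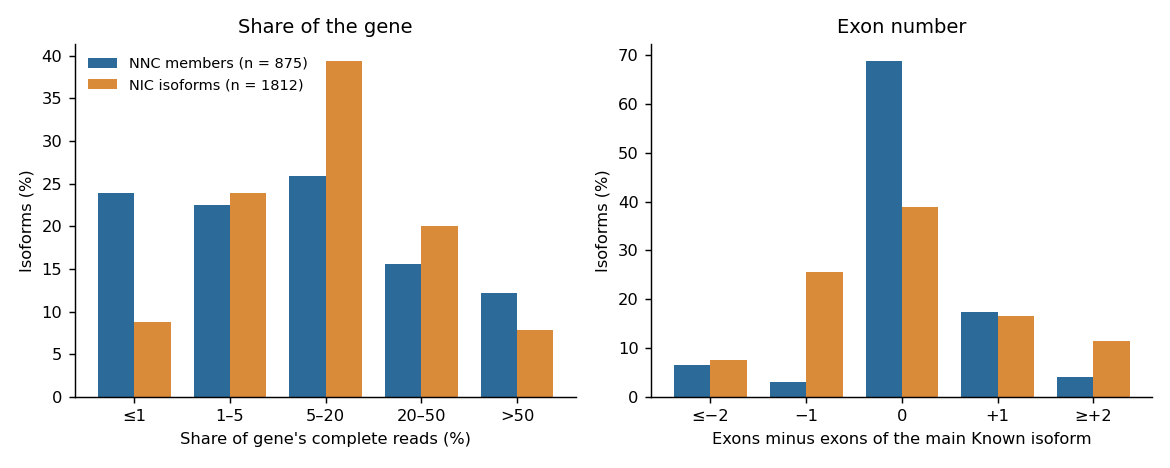
Shares of complete reads (percent of the gene's Known, NIC and NNC reads) and exon numbers minus those of the main Known isoform, for the NNC isoforms and the NIC isoforms of the same minimum. Of the NNC isoforms 68.9% had as many exons as the main Known isoform, against 39.0% of the NIC isoforms.

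The exon chain was usually of the same length as that of the main Known isoform, the most read Known isoform of the gene. Of 819 isoforms whose gene had a Known isoform with reads, 564 (68.9%) had as many exons, 142 (17.3%) had 1 more and 34 more than that. Only 25 (3.05%) had 1 exon fewer, where NIC isoforms had 1 fewer in 25.6%, and 54 had lost more than 1. For 56 isoforms no Known isoform of the gene was read. The median difference in length was -8 nt (quartiles -336.5 and 93 nt), with 505 shorter and 314 longer. The isoforms had 2 to 30 exons, with a median of 7, and a median length of 2098 nt.

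At the extremes the numbers of exons lay far apart. Ptcd3, a mitochondrial ribosome protein, had 24 exons in its unannotated isoform and 3 in the main Known one. In Mia3, which acts in export of large cargo from the endoplasmic reticulum, the numbers were 22 and 4, and in Slco1a4, an organic anion transporter, 16 and 1. On the other side, the isoform of Itsn2, an endocytic scaffold, had 18 exons against 39, that of Atrnl1 had 3 against 29, and the 2 of Myt1l, a neuronal transcription factor, had 9 and 8 against 25. Known isoforms with few reads set some of these contrasts, since the main Known isoform held 1.36% of the complete reads of Ptcd3 and 0.441% of those of Itsn2.

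Most of the unannotated isoforms listed were hardly read. Of 106441 NNC isoforms of annotated genes with a read, 83445 had exactly 1. The 875 made up 0.822% of the isoforms with a read and 39.1% of the reads (118296 of 302571). Reads per isoform lay between 14 and 17344, with a median of 51, and 202 isoforms were read in all 16 samples. Those just inside the threshold, the 251 with 5 reads in exactly 2 samples, had 14 to 62 reads in all, and the 590 just outside, with 5 reads in 1 sample, had 5 to 40. At full depth 375 isoforms met the minimum in the cortex and 775 in the striatum, but with every sample drawn down to 252885 reads the numbers were 148 and 154, with 105 in both.

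The genes that held them were mostly protein-coding (687 of 707), with 6 lincRNA genes. Of the genes, 585 held 1 such isoform, 96 held 2, 15 held 3 and 11 held 4 or more. Among genes with at least 100 complete reads, 648 of 6807 (9.52%) held one, and this share rose with the reads of the gene, from 4.70% at 100 to 300 reads to 39.8% at 3000 reads or more. Genes with the most were Mbp (7), encoding myelin basic protein, Atp2b1 (6) and Snrpn (6), and Ptgds held 5. In Mbp the most read of the 7 had 281 of 95092 complete reads (0.296%).

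Gene lists held such isoforms at varied rates. Among genes with at least 100 complete reads, such an isoform was held by 4 of 24 genes of synaptic vesicles and release, 9 of 39 of kinase, phosphatase and G protein signalling, 6 of 20 of myelin and oligodendrocytes and 11 of 59 of splicing. The counts were 12 of 51 for nuclear genes of oxidative phosphorylation, 22 of 79 for ribosomal proteins, 7 of 36 for the cytoskeleton and 0 of 7 for m6A writers, erasers and readers. Over all genes of that minimum the share was 9.52%, and at 3000 complete reads or more it was 39.8%. The lists were not matched for reads, so their rates cannot be read as enrichment. Within these lists, shares were mostly low. The median was 0.296% for the 17 isoforms of the myelin list, 0.627% for the 26 of ribosomal proteins and 4.14% for the 20 of splicing proteins, and of the lists just named only that of the ribosomal proteins held an isoform above 50%, in Rps24. Reads of ribosomal proteins can also map to processed copies, so their counts are uncertain. Markers of striatal projection neurons, also not matched for reads, stood at 6 of 9 genes, with 10 isoforms and 3 above 50%. Vrk1 and Srprb, named in earlier results of these data, held 1 such isoform each. Cntn6 and Ssbp2, which the study's text names for unannotated exons, held none, on 32 and 862 complete reads over the 16 samples. Both had NNC reads (12 and 35), with at most 3 and 4 on any 1 isoform. For Cntn6 the minimum was hardly reachable at this depth, and the study's exons were not tested.

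The most read isoform belonged to Penk, which encodes preproenkephalin, the opioid peptide precursor of striatal neurons of the indirect pathway (chr4:4133531-4138819, - strand). It held 17344 of 17533 complete reads (98.9%), while the most read Known isoform had 131. It had 3 exons and 1848 nt, and that Known isoform 2 exons and 1449 nt. The annotated junction of that Known isoform is shown as a reference, since the extra junction of the unannotated one has no position in the tables. It joins chr4:4138006-4138477 to chr4:4133531-4134507 on the - strand (mm10, GENCODE M21), and the first bases of the second exon are in capitals.
Penk annotated junction: gacatcaatttcctgGCGTGCACACTGGAA
The same 30 bases span a junction of the 3-exon Known isoform, which is 721 nt long and had 12 reads.

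**Figure D3:**
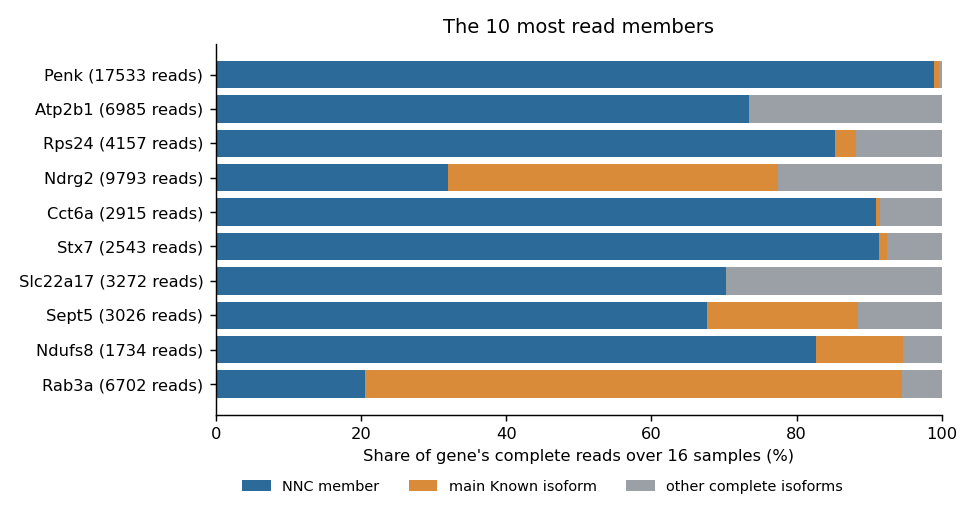
Share of complete reads over the 16 samples (x axis, percent of the gene's Known, NIC and NNC reads) of the 10 most read unannotated isoforms (blue), the main Known isoform of the gene (orange) and all other complete isoforms (grey), with the gene's complete reads in brackets. The blue bar is longest for Penk (98.9%) and shortest for Rab3a (20.5%), and Atp2b1 and Slc22a17 have hardly any orange.

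Most of the next most read isoforms held over 50% of the complete reads of their genes, which were of varied function. Complete reads leave out ISM reads, so these shares are not the whole output of a gene. Atp2b1, a plasma membrane calcium pump, had 5132 reads on an isoform of 6 exons and 1605 nt (73.5% of complete reads), and no Known isoform of it was read. Another NNC isoform of Atp2b1, of 22 exons and 4640 nt, had 88 reads. Cct6a, a subunit of the cytosolic chaperonin, had 2652 reads (91.0%), and Stx7, an endosomal SNARE protein, 2322 (91.3%). Sept5, a septin of presynaptic terminals, had 2047 (67.6%) on an isoform of 11 exons and 3826 nt, where the Known one has 12 exons and 2127 nt. Ndufs8, a subunit of respiratory complex I, had 1433 (82.6%), and Rps24, a protein of the small ribosomal subunit, 3544 (85.3%). Below 50% lay Ndrg2, a gene of astrocytes, with 3129 reads (32.0%), and Rab3a, a GTPase of synaptic vesicles, with 1373 (20.5%).

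Shares above 90% in genes of at least 100 complete reads were also found in less read genes. They were 96.5% for Dpy30, a subunit of histone methyltransferase complexes, 96.2% for Srp54a, of the signal recognition particle, 92.6% for Capn2, a calcium-dependent protease, and 92.0% for Gpr137b-ps. Srp54a and Srp54b are near-identical copies, as are Gpr137b-ps and its parent gene, so the reads of these genes may be divided between copies and are uncertain. Together the 10 most read isoforms held 34.9% of all reads of the 875, and Penk alone 14.7%.

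Taken over all genes, the 875 isoforms made up 1.26% ± 0.0885 (SD, n = 4) of complete reads in NT cortex and 1.15% ± 0.0301 (n = 4) in R6/2 cortex. The samples ran from 1.13% to 1.33% and from 1.12% to 1.19%, so the groups overlapped (difference -0.111 points, exact two-sided permutation p = 0.114). In the striatum the share was 1.82% ± 0.112 in NT and 1.27% ± 0.115 in R6/2 samples (n = 4 each). NT samples lay between 1.67% and 1.94% and R6/2 samples between 1.15% and 1.42%, without overlap (-0.543 points). Permuted within the number of count sets, the exact p was 0.0556, the smallest that 36 arrangements allow. The difference was -0.570 points in samples with 1 set and -0.517 points in those with 2.

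Penk made up most of that difference. With Penk left out, chosen after seeing the data, the striatal shares were 1.26% ± 0.102 in NT and 1.20% ± 0.109 in R6/2 samples and overlapped (-0.0602 points, exact permutation p = 0.222). Between regions the share was 0.338 points higher in the striatum (exact permutation p = 0.0103), and without Penk 0.0333 points (p = 0.476, exact permutation). Of the isoforms, 438 met the minimum of reads in the striatum and not the cortex, and 38 in the cortex and not the striatum. The region difference in total share therefore describes the choice in part and is not support. With the striatal samples of 1 set only, the region difference was 0.261 points (exact permutation p = 0.0525). Without Penk the means of the 4 groups lay between 1.15% and 1.26%.

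**Figure D4:**
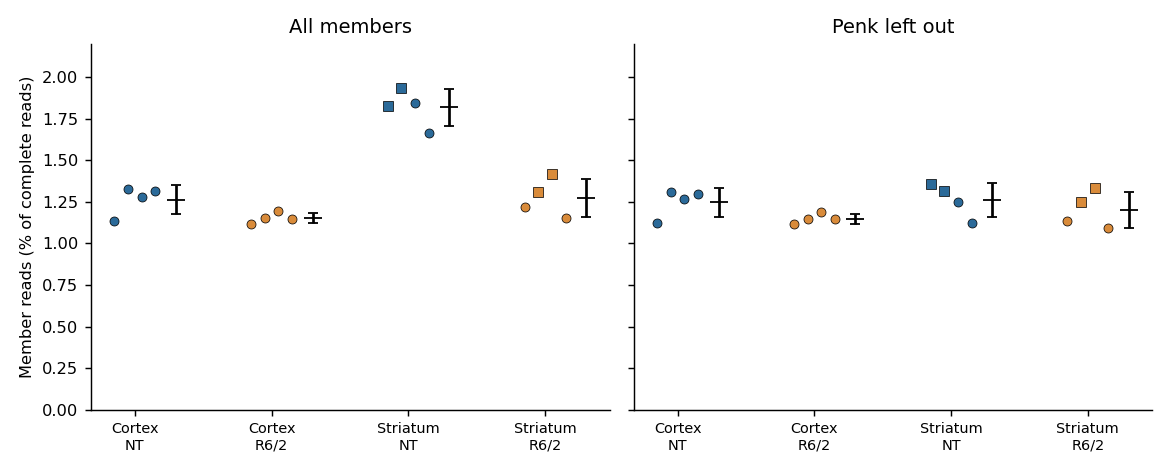
Share of complete reads held by the 875 unannotated isoforms in each sample (y axis, percent), with Penk and with Penk left out, by region and genotype. With Penk the 4 striatal NT samples lie between 1.67% and 1.94%, above all other samples, and without it the 4 groups overlap.

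Isoform usage asks whether an isoform changes relative to the other isoforms of its gene. It was tested with edgeR's quasi-likelihood fit and diffSpliceDGE, with Benjamini-Hochberg adjustment over all isoforms tested, and a call is an adjusted p under 0.05. On simulated data this test found 58% of 4-fold changes in the cortex for isoforms with a share of at most 50%, and 2.22% for isoforms above 50%. It therefore says little about the isoforms that dominate their gene, and their shares were also compared by exact permutation tests.

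In the cortex, usage differed between R6/2 and NT samples for 2 of 611 isoforms tested (0.327%), where 0.214% of all isoforms tested were called. Over the 611 the median log2 difference was -0.06, and over all isoforms 0.00. The isoform of Rtn4, which encodes the reticulon protein Nogo of the endoplasmic reticulum, has 3 exons and 1651 nt, against 7 exons and 1773 nt in the main Known isoform. It held 9.18%, 7.32%, 7.29% and 8.81% of complete reads in NT cortex (96 to 205 reads) and 21.6%, 26.6%, 18.4% and 16.7% in R6/2 cortex (90 to 147 reads). The R6/2 samples all lay above the NT samples (log2 usage difference 1.35, edgeR adjusted p = 0.0431). This call was lost under 10 of 13 alternatives, among them leaving out NT 2, NT 3, NT 4, R6/2 1, R6/2 2 or R6/2 3, with adjusted p values from 0.0241 to 0.458.

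The other call was in Snrpn, whose product is a core protein of spliceosomal particles in neurons. An isoform of 11 exons and 1501 nt had 4, 7, 0 and 3 reads in NT cortex and 1, 1, 1 and 0 in R6/2 cortex. NT sample 3 had no read of it, so the groups overlapped (log2 usage difference -3.02, edgeR adjusted p = 0.0431), and the call was lost under 11 of 13 alternatives, with any 1 sample left out other than NT 3 (adjusted p values from 0.0195 to 0.457).

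In the striatum, 3 of 815 isoforms were called (0.368%), with 0.286% of all isoforms tested called. The isoform of Hpca, the neuronal calcium sensor hippocalcin (chr4:129111570-129122036), has 5 exons and 1686 nt where the main Known isoform has 4 exons and 1525 nt. It held 3.03%, 2.38%, 2.96% and 2.73% of complete reads in NT striatum and 1.33%, 1.38%, 0.778% and 1.01% in R6/2 striatum, with 695 to 8313 complete reads per sample. The groups did not overlap (log2 usage difference -1.32, edgeR adjusted p = 0.00293). The call was lost without R6/2 sample 3, without the term for count sets and with the first set of counts only.

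Ngef encodes a guanine nucleotide exchange factor, and its unannotated isoform has 13 exons like the main Known one and is 2838 nt long against 2746 nt. Its shares were 0.467%, 0.320%, 0.177% and 0% in NT striatum and 2.76%, 3.47%, 2.37% and 4.67% in R6/2 striatum. All R6/2 samples lay above all NT samples (log2 usage difference 3.10, edgeR adjusted p = 3.517e-05), and the call was lost only with the first set of counts, among 15 alternatives. In the cortex the shares were 0% to 2.08% in NT and 1.37% to 6.76% in R6/2 samples, on 11 reads or fewer in a group, and overlapped.

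Vrk1 encodes a nuclear serine/threonine kinase, and its isoform of 14 exons and 1920 nt was read in NT striatum only, where it had 3 of 21, 10 of 43, 6 of 17 and 1 of 2 complete reads. It thus met the minimum of reads through NT striatum alone, so its genotype difference describes the choice and is not support. In R6/2 striatum it had 0 of 70 complete reads, which allows a share of up to 4.29%, against 24.1% of 83 pooled reads in NT samples. The NT share was 5.62 times that limit, a ratio that leaves out the counting error of the NT share. The usage difference was called (edgeR adjusted p = 0.00331) but lost without R6/2 sample 2 and with the first set of counts only. In the cortex it had 0 of 17 and 0 of 22 complete reads, which allows shares of up to 17.6% and 13.6%, so it was not detectable at this depth. Srprb, of the signal recognition particle receptor, held an isoform with 31 of 607 complete reads that was not called in either region.

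**Figure D5:**
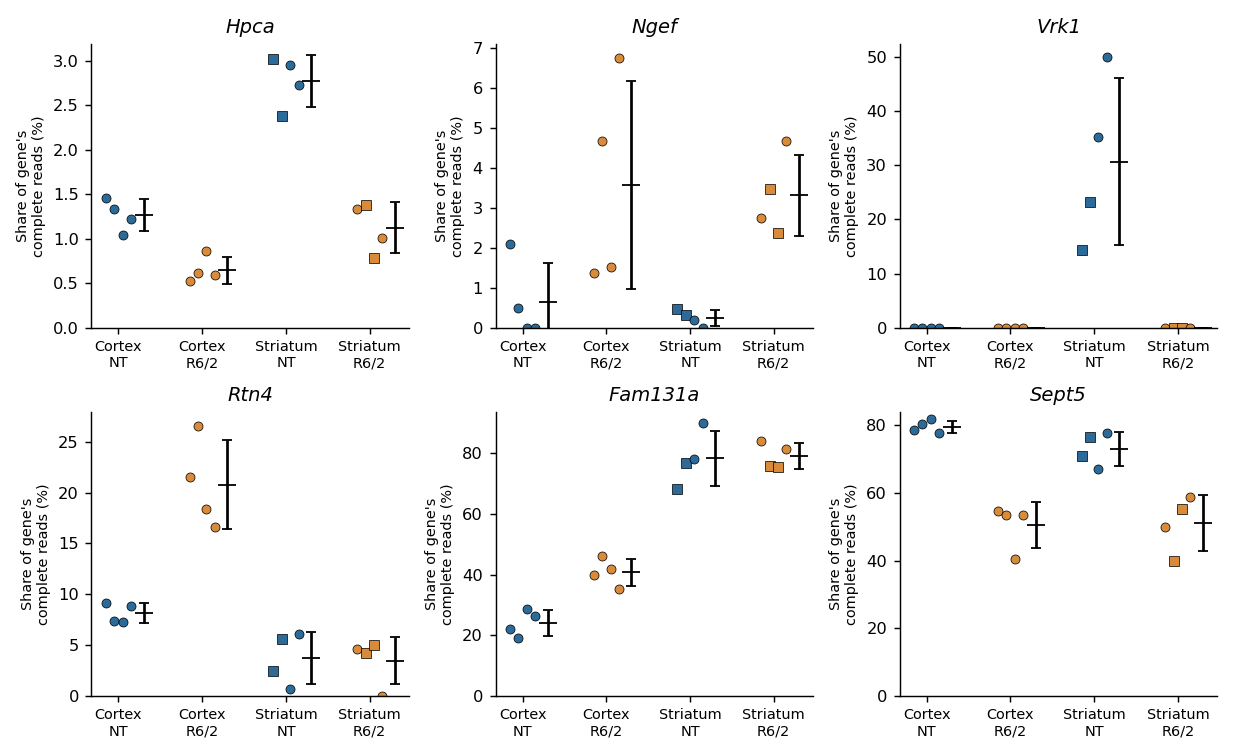
Share of complete reads (y axis, percent) of 6 unannotated isoforms in each sample, with circles for samples with 1 set of counts and squares for those with 2, NT in blue and R6/2 in orange, and dash and bar for mean ± SD. Hpca, Ngef and Vrk1 separate the genotypes in the striatum, Rtn4 in the cortex and Sept5 in both regions, and Fam131a separates the regions.

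Sept5 showed the widest genotype difference in share among the 10 most read isoforms. Its isoform held 78.6%, 80.3%, 81.8% and 77.9% of complete reads in NT cortex and 54.7%, 53.6%, 40.5% and 53.6% in R6/2 cortex. The groups were apart by a mean of 29.1 points with the lower share in R6/2 samples (exact permutation p = 0.0286, the smallest of 70 arrangements, and 0.286 adjusted over 30 such tests). In the striatum the shares were 70.9%, 76.5%, 67.1% and 77.8% in NT and 50%, 40.0%, 55.4% and 58.8% in R6/2 samples, again without overlap (exact permutation p = 0.0556, the smallest allowed, and 0.286 adjusted). With limma voom and diffSplice the adjusted p was 0.122 in the cortex and 0.0227 in the striatum. By edgeR, the main test, usage was called in neither region (log2 usage difference -0.56 and -0.43). Depth per sample was modest, as in NT cortex sample 3, where 18 of 22 complete reads gave a Wilson 95% interval of 61.5% to 92.7%.

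D8Ertd738e was called by limma voom in both regions and by edgeR in neither. Its isoform has 4 exons and 596 nt against 3 exons and 616 nt in the Known one. In NT cortex the shares were 48.9%, 84.6%, 88.2% and 82.9%, and in R6/2 cortex 40.7%, 54.0%, 42.9% and 39.7%. In NT striatum they were 49.3%, 91.9%, 82.5% and 76.7%, and in R6/2 striatum 37.2%, 40.0%, 40.2% and 32.3%. In the striatum the groups did not overlap, while in the cortex NT sample 1 lay within the R6/2 range, and NT sample 1 lay far below the other NT samples in both regions. The adjusted p was 0.0491 in the cortex and 0.00148 in the striatum by limma voom, and 0.890 and 0.473 by edgeR.

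For Penk the share of its isoform was a little lower in R6/2 striatum, while the level fell far more. The share was 99.1% to 99.2% in the 4 NT striatal samples and 97.3%, 97.2%, 98.3% and 96.1% in the R6/2 samples, without overlap (exact permutation p = 0.0556, and 0.286 adjusted over 30 tests). With limma voom and diffSplice this difference was called (log2 usage difference -1.75, adjusted p = 0.00782), as was that between regions (1.86, adjusted p = 0.0235). By edgeR, the main test, neither was called (log2 usage difference -0.024 and 0.00096). Of the 10 most read isoforms, none had an adjusted p under 0.05 between genotypes in the permutation tests, at p values that cannot go below 0.029 in the cortex and 0.056 in the striatum.

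Between regions, usage differed for 17 of 794 isoforms tested. A higher share in the striatum was called for 15, where 0.666% of all isoforms were called higher, and a lower one for 2, where 0.490% of all were. The minimum of reads was met by 438 isoforms in the striatum and not the cortex, and by 38 the other way. This lean to the striatum therefore describes the choice in part and is not support. The called isoform of Stk25, with 4 cortical and 19 striatal reads, met the minimum through the striatum alone. The median log2 difference was 0.08 over the 794 and 0.00 over all isoforms. The region fit held terms for genotype and number of count sets, but none for read length. The number called was 11 without cortex R6/2 3 or without striatum NT 3, and 2 with NT samples alone.

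In Fam131a (chr16:20693241-20703048) the Known isoform prevailed in the cortex and the unannotated one in the striatum. The isoform of 7 exons and 1814 nt held 22.1%, 19.0%, 28.6% and 26.2% in NT cortex and 40.0%, 46.0%, 41.8% and 35.3% in R6/2 cortex. In the striatum it held 68.2%, 76.9%, 78.0% and 90.0% in NT and 84.2%, 75.9%, 75.3% and 81.2% in R6/2 samples. The regions did not overlap (log2 usage difference 1.45, edgeR adjusted p = 7.864e-05), and in the cortex the genotypes did not overlap either, though that difference was not called. The Known isoform of 6 exons and 2432 nt had 432 reads in the cortex and 56 in the striatum. Depth was lowest in NT striatum sample 4, where 9 of 10 complete reads gave a Wilson 95% interval of 59.6% to 98.2%.

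In Snrpn, another isoform, of 10 exons and 3547 nt, held 0.952% to 1.97% in cortical and 2.54% to 6.93% in striatal samples (log2 difference 1.73, edgeR adjusted p = 3.821e-07). For Ly6h, a membrane protein of neurons anchored by GPI, shares were 0% to 6.43% in the cortex and 10.1% to 21.6% in the striatum (log2 difference 1.72, edgeR adjusted p = 0.000351). The regions did not overlap for either of these isoforms. The call for Snrpn held under all 25 alternatives, while those for Ly6h and Fam131a were lost only with NT samples alone (adjusted p = 0.180 and 0.0519).

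The Rtn4 isoform went the other way, with 7.29% to 26.6% in cortical and 0% to 6.06% in striatal samples (log2 usage difference -2.43, edgeR adjusted p = 0.00103), and was not called with NT samples alone (adjusted p = 0.532). The other lower one was in Actg1, a cytoplasmic actin, with group means of 0.287% and 0.259% in the cortex and 0.0430% and 0.0536% in the striatum (edgeR adjusted p = 0.00704). Other calls were for Pkm, Eef2, Eef1a1, Dtnbp1, Slc25a3, Flywch1, Fth1, Mbp, Stk25 and Ckb, each higher in the striatum, with 2 isoforms for Eef2. The calls for Pkm, Dtnbp1, Eef1a1 and 1 isoform of Eef2 held with any 1 sample left out, but were lost under 3 of 25, 3 of 25, 5 of 25 and 2 of 23 alternatives. That for Actg1 (5 of 25) was lost without striatum NT 3 or R6/2 1, that for Slc25a3 (6 of 25) without striatum R6/2 4, and that for Flywch1 (5 of 25) without cortex R6/2 3 or striatum R6/2 1. The call for Fth1 (9 of 25) was lost without cortex R6/2 3 or striatum NT 3, NT 4 or R6/2 4, and that for the other Eef2 isoform (9 of 25) without cortex NT 2 or R6/2 3 or striatum R6/2 1 or R6/2 4. The least stable calls were for Mbp (12 of 25), lost without cortex NT 2, NT 4, R6/2 1, R6/2 3 or R6/2 4 or striatum NT 3, NT 4 or R6/2 4, and for Stk25 (10 of 20), lost without cortex NT 1, NT 2, R6/2 1, R6/2 2 or R6/2 3 or striatum NT 3 or NT 4. That for Ckb was lost under 16 of 23 alternatives, among them any 1 cortical sample other than NT 2 and NT 3, and striatum NT 4, R6/2 2, R6/2 3 or R6/2 4. Dtnbp1, the gene of dysbindin, rose to 31.3% to 84.6% in the striatum from 8.33% to 30% in the cortex (log2 difference 1.61, edgeR adjusted p = 0.00607). Several of these, among them Eef1a1, Actg1, Pkm and Fth1, have processed copies in the genome, and their values are uncertain.

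Among the 10 most read isoforms, Atp2b1 differed between regions. Its share was 76.4% to 85.4% in cortical and 58.9% to 78.5% in striatal samples, 12.7 points lower on average in the striatum (exact permutation p = 0.000466, 0.0140 adjusted over 30 tests). The ranges overlapped. This test had no term for the number of count sets, and striatal samples with 2 sets had longer reads. By edgeR the difference was not called (log2 usage difference -0.13), and limma voom gave an adjusted p of 0.1005. A NIC isoform of 8 exons held most of the other reads, with 306 in the cortex and 835 in the striatum. Longer isoforms of 13 and 22 exons had 13 and 2 reads in the cortex and 170 and 86 in the striatum. Rab3a was 4.14 points lower in the striatum (exact permutation p = 0.00762), which did not pass the adjustment (0.114).

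The genotype difference in usage itself differed between regions for 1 of 794 isoforms (0.126%), where 0.0185% of all isoforms were called. This was in Tsnax, which encodes translin-associated factor X, with an isoform of 4 exons and 4132 nt. It had 10 of 777 complete reads in NT cortex and 0 of 895 in R6/2 cortex, which allows a share of up to 0.335%. In the striatum it held 0.369%, 0.984%, 0.730% and 0% in NT and 3.33%, 1.22%, 3.49% and 2.75% in R6/2 samples. The isoform was thus lower in R6/2 cortex and higher in R6/2 striatum without overlap in either (log2 difference of differences 6.33, edgeR adjusted p = 0.0350). It had 5 reads or more only in striatum NT 2 (5 reads) and striatum R6/2 1, 2 and 3 (6, 5 and 13 reads). It thus met the minimum through R6/2 striatum, so its difference describes the choice and is not support. The call was lost under 18 of 23 alternatives, among them leaving out any 1 of 13 samples, with adjusted p values from 0.0292 to 0.490.

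The level of an isoform can change with its whole gene, and was tested with edgeR on the counts after a filter on low counts. The filter left 83 of the isoforms in cortical and 145 in striatal samples, so most of the 875 were not tested. In the cortex 1 rose, where 0.353% of all isoforms tested did, and 4 fell, where 2.42% did. In the striatum 2 rose (0.523% of all did) and 10 fell (3.23% of all did). Over those tested the median log2 difference was -0.04 in the cortex and 0.00 in the striatum.

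Penk fell most in the striatum. Its level was 4810, 6570, 6700 and 7181 CPM in NT and 840, 567, 842 and 686 CPM in R6/2 striatum (log2 fold change -3.10 ± 0.20, SE, edgeR adjusted p = 1.791e-05). In the cortex it was 156, 193, 184 and 163 CPM in NT and 39.2, 30.8, 42.2 and 49.5 CPM in R6/2 samples (-2.09 ± 0.23, edgeR adjusted p = 8.78e-05). The groups did not overlap in either region, and both calls held under every alternative tried. Hpca fell from 177 to 191 CPM to 21.8 to 30.6 CPM in the striatum (-2.80 ± 0.19, edgeR adjusted p = 1.791e-05).

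Other genes of striatal projection neurons fell too. The isoform of Adora2a, an adenosine receptor, held 55.6% to 69.7% of complete reads in NT striatum and fell from 65.2 to 177 CPM to 30.6 to 74.6 CPM (-1.46 ± 0.33, edgeR adjusted p = 0.0330). The ranges overlapped, and the call was lost under 8 of 14 alternatives, among them leaving out NT 1, NT 3, R6/2 1, R6/2 2 or R6/2 4. That of Ppp1r1b, which encodes the phosphatase regulator DARPP-32, held 0.376% to 1.02% of its gene's complete reads in striatal samples and fell from 32.5 to 40.3 CPM to 3.12 to 8.99 CPM (-2.51 ± 0.36, edgeR adjusted p = 0.00257). The 10 marker genes of these neurons, of which Penk, Adora2a and Ppp1r1b are 3, summed to 8542 to 13432 CPM in NT and 1940 to 3429 CPM in R6/2 striatum, all 10 with reads. The Penk isoform alone had a mean of 6315 CPM in NT and 734 CPM in R6/2 striatum. The sum is therefore not independent of its fall. The part of such a change in these results was not tested.

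Atp2b1 fell in the striatum from 497, 1189, 1137 and 1382 CPM to 344, 251, 284 and 331 CPM without overlap (-1.78 ± 0.25, edgeR adjusted p = 0.00241), while in the cortex the difference was -0.59 ± 0.20 and did not pass (edgeR adjusted p = 0.149). Sept5 fell in both regions. In the striatum its level went from 274 to 514 CPM to 62.4 to 220 CPM (-1.93 ± 0.31, edgeR adjusted p = 0.00500). In the cortex it went from 118 to 529 CPM to 91.5 to 104 CPM (-2.08 ± 0.32, edgeR adjusted p = 0.00162), where NT sample 3 had the 118 CPM and the other NT samples at least 423 CPM. The striatal calls for Atp2b1 and Sept5 were lost without the term for count sets and with the first set only.

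Ndrg2 fell in both regions as well, from 420 to 520 CPM to 186 to 306 CPM in the cortex (-0.97 ± 0.21, edgeR adjusted p = 0.0181) and from 345 to 805 CPM to 242 to 326 CPM in the striatum (-1.005 ± 0.22, edgeR adjusted p = 0.0269). The cortical call was lost without R6/2 1 or R6/2 3, and the striatal one under 11 of 14 alternatives, among them leaving out any sample other than NT 2 and NT 4. Its share of complete reads was 30.2% in NT and 26.9% in R6/2 cortex on average (exact permutation p = 0.343). Summed levels of 5 astrocyte markers were 2048 to 3356 CPM in NT and 1261 to 1703 CPM in R6/2 cortex, and their part in the result was not tested. In the cortex Camk2g, a subunit of the calcium/calmodulin-dependent kinase, fell from 85.2 to 147 CPM to 58.7 to 72.9 CPM (-0.93 ± 0.23, edgeR adjusted p = 0.0422), a call lost under 9 of 12 alternatives, among them leaving out any sample other than NT 1 and NT 3. Summed levels of 8 markers of cortical excitatory neurons were 459 to 766 CPM in NT and 267 to 361 CPM in R6/2 cortex, and their part in the result was not tested.

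The isoforms that rose were few. Both isoforms of Slc22a17 rose in the striatum, the longer from 349, 185, 116 and 104 CPM to 284, 564, 765 and 181 CPM (1.21 ± 0.24, edgeR adjusted p = 0.0173) and the shorter from 45.6 to 116 CPM to 56.2 to 306 CPM (1.35 ± 0.31, edgeR adjusted p = 0.0368). The groups overlapped, and within the number of count sets the R6/2 samples lay above the NT samples. The calls were lost under 4 and 7 of 14 alternatives, among them leaving out R6/2 1 or R6/2 3. The longer held 70.3% of complete reads in NT and 70.1% in R6/2 striatum on average. Prune2 rose in the cortex from 18.6, 20.1, 19.7 and 18.7 CPM to 41.8, 50.5, 49.5 and 46.4 CPM, without overlap (1.28 ± 0.31, edgeR adjusted p = 0.0368), and this call was lost under 10 of 12 alternatives, among them leaving out any sample other than NT 1. The isoforms that fell in the striatum beside those named were in Mobp, a myelin gene, Dmtn, which encodes the actin-binding protein dematin, and Gas7, with log2 fold changes of -1.83, -1.33 and -1.45 (edgeR adjusted p = 0.0181, 0.0444 and 0.0476). They were lost under 7 of 12, 10 of 13 and 10 of 13 alternatives.

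Some isoforms were present in some samples and absent in others. Of 578 isoforms whose gene had at least 5 complete reads in every sample, 16 had a share of 0 in at least 2 samples and at least 20% in at least 2 others. The clearest was in Sfr1, which acts in homologous recombination (chr19:47731682-47735588). Its isoform of 4 exons and 769 nt had no read in NT 2, NT 4 and R6/2 1 of both regions, on 19 to 60 complete reads per sample and 227 in all, which allows a share of up to 1.32%. In the other 10 samples the share lay between 15.1% and 59.4%, so the samples without the isoform had the same numbers in cortex and striatum.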

How the data were processed

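The RNA of 16 pieces of male mouse cortex and striatum was read as full-length cDNA. The authors built circular consensus reads, kept those that were full-length and polyadenylated, aligned these to the mm10 genome (minimap2 2.17-r941), corrected splice sites with TranscriptClean and assigned reads to isoforms with TALON against Ensembl annotations. The deposited values are counts of reads per isoform, not normalized and before TALON's filter on transcripts, with the class, number of exons and length of each isoform. An isoform called unannotated here is so against the authors' annotation: 5 of the 875 had as many exons and the same length as a transcript of their gene in GENCODE M21. For 4 striatal samples the 2 count sets were added up, and the number of sets was a term in striatal and region fits.

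Groups came from the sample labels. Gene symbols, positions and annotated sequences came from GENCODE M21 (mm10), in which all 875 gene IDs were found, and 3 symbols that the tables hold as dates were taken from it. Usage and level were tested with edgeR 4.0.16 (R 4.3.3; TMM, quasi-likelihood fits), usage over the isoforms of the complete classes that had 10 reads or more (20 for regions) in genes with at least 2 such isoforms, and level after filterByExpr, with Benjamini-Hochberg adjustment over all isoforms and a threshold of 0.05. diffSpliceDGE gives no standard error, so usage differences carry none. CPM are counts scaled to the TMM-adjusted library size. Exact permutation tests of single values were two-sided, and 10 isoforms times 3 comparisons made 30 tests. Wilson intervals and limits from a count of 0 (3 counts) cover counting error only, and reads after PCR without molecular identifiers are not independent molecules.

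In simulated counts with 200 changed isoforms, the usage tests called 58% (cortex), 52% (striatum), 52% (region) and 8% (interaction) of 4-fold changes at shares up to 50%, but at most 2.22% at higher shares. The level tests called 100% (cortex) and 97.6% (striatum) at shares up to 50%. All changed isoforms had at least 100 reads in the samples fitted, so the rates of both kinds of test were not measured below that. Alternatives were upper-quartile normalization, limma 3.58.1 (voom, diffSplice), DESeq2 1.42.0, other minimums, ISM reads added, the first set only, a replicate block and leaving out each sample.

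Named are the 10 most read isoforms, the 10 of highest share in genes of at least 100 complete reads, the 5 genes with most isoforms, up to 8 called isoforms per fit, up to 8 that vary among samples, 3 exon gains and 3 losses, and Cntn6, Ssbp2, Vrk1 and Srprb. D8Ertd738e, Rbfox1, Rpl3 and the genes whose exon starts are printed were chosen after their values were seen. A few results among the named isoforms are not reported here. The members and lists were chosen with earlier results of these data known. Python 3.11.15, pandas 2.3.3, numpy 2.4.6 and matplotlib 3.10.9 were used for the rest.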

Additional observations from a re-analysis of the deposited data

Results flagged for a closer look

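Shares of 98 groups of 4 samples were searched for a sample whose gap to the nearest other was over Dixon's critical share of the range, which chance gives in about 1 of 20 groups, and 6 were found. Atp2b1 stood at 77.7% in cortex NT 1, below the other NT samples at 83.6% to 84.3%. Cct6a stood at 88.3% in striatum R6/2 1, below 91.1% to 91.7%. Sept5 stood at 40.5% in cortex R6/2 3, below 53.6% to 54.7%. Ndufs8 stood at 70.9% in cortex R6/2 2, below 80.4% to 81.4%. The Rtn4 isoform had 0 of 58 complete reads in striatum R6/2 4, where the other R6/2 samples had 4.19% to 5%. Slc25a3, a mitochondrial phosphate carrier, stood at 3.04% in striatum R6/2 4, above 0.541% to 0.790%. No sample accounts for more than 2 of the 6.

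The genotype difference in usage of the Tsnax isoform was 6.33 higher in the striatum than in the cortex on the log2 scale (edgeR adjusted p = 0.0350), by an interaction term.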

How the results depend on the processing

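Among the 875, usage calls in the cortex (2) became 0 with a minimum of 5 reads, 1 with limma voom and 0 with ISM isoforms added. In the striatum (3) they became 7 with voom and 0 with the first set of counts. Region calls (17) became 31 with ISM isoforms and 2 with NT samples only, and the interaction (1) became 0 with a minimum of 5 reads, ISM isoforms, no term for count sets or the first set. Level calls in the cortex (5) became 3 without the filter, and in the striatum (12) 3 without the term for count sets and 2 with the first set. Beside the 0 calls, unadjusted p values under 0.05 numbered 46 (minimum of 5 reads) and 40 (ISM) in the cortex, 33 in the striatum, and 29, 26, 20 and 17 for the interaction.

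The sample number was not taken to pair the samples, since not every same-numbered pair correlated above 0.1, although Sfr1, Rpl3 and D8Ertd738e vary by number in both regions, and 3 of 8 cortical samples correlated best with the striatal sample of their own number and genotype. These correlations cannot exclude pairing, and the main region tests treated the 16 samples as independent. With a replicate block, cortical usage gave 0 calls (29 at an unadjusted p under 0.05), region 9 (7 of the 17), the interaction 0 (13) and cortical level 3, while striatal usage gave 3 and striatal level 8.

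Leaving out each sample in turn gave 0 to 2 usage calls in the cortex, 2 to 6 in the striatum, 11 to 22 for region, 0 to 1 for the interaction, and 2 to 8 and 6 to 13 level calls in cortex and striatum. The genotype difference in total share ranged from -0.154 to -0.0899 points in the cortex (exact permutation p = 0.0286 without NT 1) and from -0.594 to -0.503 in the striatum, and the region difference from 0.282 to 0.394. As a mean over genes, the cortical difference was -0.0623 points (exact permutation p = 0.0286), and over all 70 arrangements the striatal one of -0.543 had the same p. The region difference was 0.161 points for all NNC reads, 0.0348 as a mean over genes, 0.261 with striatal samples of 1 set and 0.0333 with Penk left out, none with p under 0.05.

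The number of isoforms itself was 4294 at 2 reads in 2 samples, 321 at 10 reads, 494 at 5 reads in 4 samples, 575 with the first set only and 215 with every sample drawn down to the same number of reads, where read length still differed. Of 733 values of single called isoforms under alternatives, 517 kept their call, 216 lost it and 0 changed direction. The cause of these changes was not tested.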

Other observations

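Other isoforms were also absent in some samples and present in others. In Ccndbp1, a binding partner of cyclin D, the share ran from 0% of 58 complete reads (cortex R6/2 2) and 0% of 104 (striatum R6/2 2) to 28.6% of 21 (cortex NT 3) and 31.7% of 41 (striatum NT 3). R6/2 2 was thus at 0% and NT 3 highest in both regions, and striatum NT 4 was also at 0%, on 14 complete reads. The usage difference between genotypes was not called in either (edgeR adjusted p = 1 in the cortex and 0.981 in the striatum). In Polb, DNA polymerase beta, it was highest at 37.5% of 16 complete reads in cortex R6/2 2 and 28.6% of 21 in cortex R6/2 1, against 5% to 12.5% in NT cortex (log2 usage difference 1.78, edgeR adjusted p = 0.650). In Kcna6, a voltage-gated potassium channel, it was 18.2% to 35.3% in NT striatum and 0% to 16.7% in R6/2 striatum, on 5 to 33 complete reads per sample (log2 usage difference -1.55, edgeR adjusted p = 0.739).

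Rpl3, a protein of the large ribosomal subunit that holds 2 of the 875 isoforms, varied in the complete reads of the whole gene. It had 12, 14, 11 and 22 complete reads in cortex NT 1, R6/2 1, R6/2 2 and R6/2 3, and 29, 46, 31 and 37 in the striatal samples of the same names. The other samples had 598 to 2330 in the cortex and 508 to 10029 in the striatum. The same sample names were low in both regions, and they hold both genotypes.

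An isoform of Rbfox1, a neuronal splicing factor, was called higher in R6/2 striatum by limma voom (log2 usage difference 2.75, adjusted p = 0.0218) and did not pass by edgeR (2.51, adjusted p = 0.0681). It had 54 of 693 complete reads over the 16 samples.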
